A study of Homo sapiens with 2 samples.

Results

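Kinesins are motor proteins that use ATP to walk along microtubules or to take them apart at their ends. One set of them builds the spindle, moves chromosomes and completes cytokinesis, and its transcripts are known to peak when cells divide. Another set carries vesicles, organelles and cilium components in cells of every kind, dividing or not. The kinesin genes were taken by symbol, as every gene named KIF with a number (and an optional letter from A to C) or KIFC with a number, and the rule found 40 of the 23024 genes listed in at least 1 of the 2 libraries. CENPE, a kinesin whose symbol lies outside that rule, is given below among the spindle partners.

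RNA had been sequenced from the human lung adenocarcinoma line A549, in 1 culture stably transduced with a retrovirus carrying ATOH8, a basic helix-loop-helix transcription factor, and in 1 culture stably transduced with the retroviral vector alone. Both cultures had therefore been through retroviral transduction. The sources used here do not give the promoter driving the transgene, the number of clones behind each culture or the depth of sequencing. With 1 library per group every difference below compares these 2 libraries, and no value carries a replicate error or a p-value.

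ATOH8 itself stood at 182 FPKM in the ATOH8 library and at 0.786 FPKM in the vector library (FPKM, as deposited, are fragment counts scaled to transcript length and library size). Of 8 epithelial and A549 marker genes, 7 reached 1 FPKM in each library, and the list summed to 12694 FPKM in the ATOH8 library and 14437 FPKM in the vector library. None of the 4 alveolar type 2, 4 fibroblast and 3 endothelial marker genes reached 1 FPKM in either library. Of 3 leukocyte markers only CD14 did, at 9.14 FPKM in the ATOH8 library and 1.12 FPKM in the vector library, while PTPRC, the gene of the leukocyte antigen CD45, was listed at 0.0111 FPKM in the ATOH8 library and was not listed in the vector library.

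Of the 40 kinesin genes, 38 were listed in both libraries and 30 had a mean of at least 1 FPKM. The loci of 14 of those 30 overlapped another listed gene, with which reads could have been shared. Folds are log2(FPKM + 1) in the ATOH8 library minus that in the vector library, relative to the median gene, whose own fold was -0.36. Genes are called lower or higher by size alone, when this fold reached 2-fold. By that rule 9 of the 30 kinesins were lower in the ATOH8 library, against 9.46% of all 12342 genes so compared. Another 2 were higher, against 12.8% of all genes. The median of the 30 was -0.35 and that of all genes 0.06. Without the centring, and still with 1 FPKM added, 13 kinesins passed 2-fold downward (19% of all genes did) and 1 upward (6.24% of all genes). The 9 lower genes were KIF18A, KIF11, KIF20B, KIF23, KIF14 and KIF18B of the mitotic set, KIF5B and KIF3A of the transport set, and KIF21A. The 2 higher genes were KIF12 and KIF13B. In a bulk library fewer cells in division and less of a transcript per cell cannot be told apart.

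**Figure D1:**
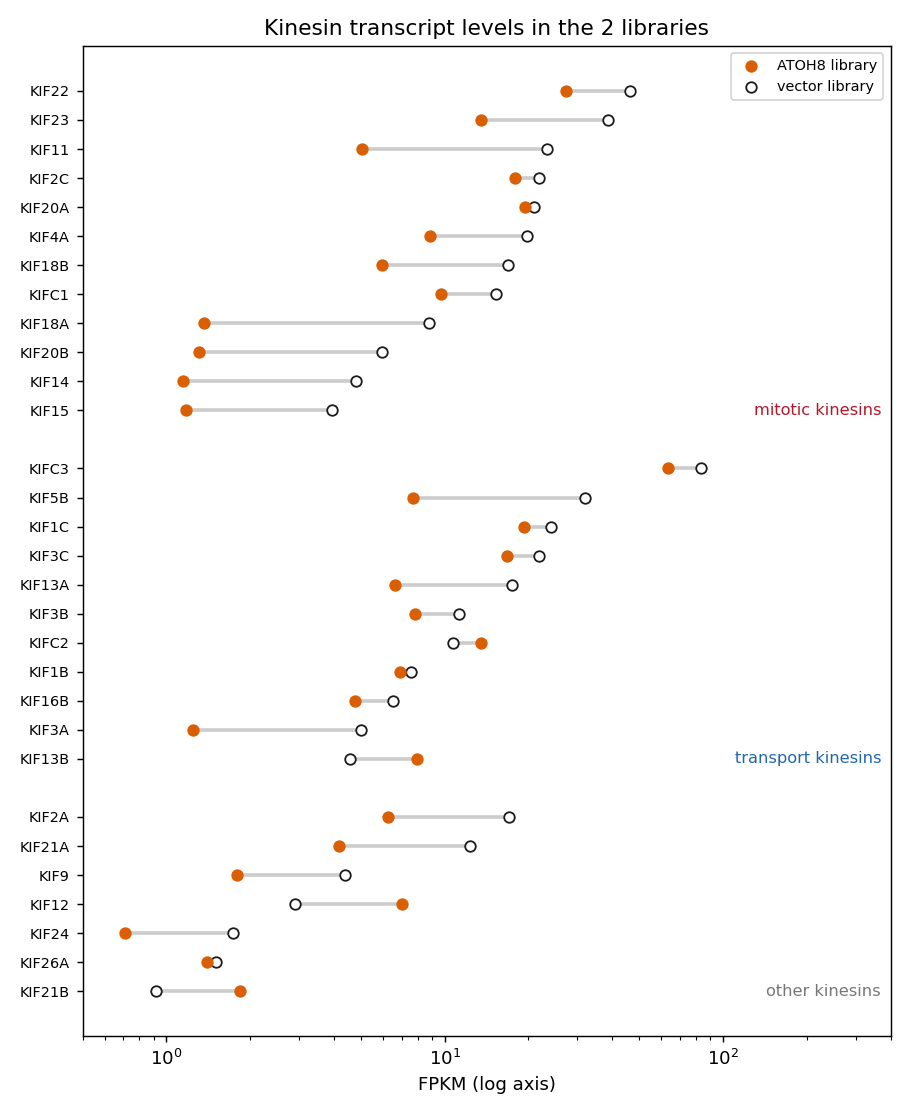
FPKM on a log axis of the 30 kinesin genes with a mean of at least 1 FPKM, with filled points for the ATOH8 library and open points for the vector library, 1 library each. In the mitotic set all 12 filled points lie left of the open ones, from KIF20A (19.4 against 20.9 FPKM) to KIF18A (1.37 against 8.80 FPKM). These FPKM are not centred, and 7991 of all 12342 tested genes likewise had the smaller FPKM in the ATOH8 library. After centring, 10 of the 12 mitotic kinesins lay below the median gene, and KIF2C (0.08) and KIF20A (0.26) lay above it.

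The mitotic motors of spindle assembly differed in how far they were lower, and their order depended on the scale. KIF11, the kinesin-5 motor that slides antiparallel microtubules to drive the spindle poles apart, had 5.05 FPKM in the ATOH8 library and 23.3 FPKM in the vector library. Its fold was -1.65, and 1.70% of all tested genes lay lower (ENSG00000138160, protein-coding, chromosome 10, 92593286 to 92655395, plus strand, GRCh38). KIF15, a kinesin-12 that can take over part of that work on the spindle, had 1.17 and 3.93 FPKM in the ATOH8 and vector libraries (-0.82). KIFC1, a kinesin-14 that walks toward the minus end and gathers microtubules at the poles, had 9.67 and 15.3 FPKM in the ATOH8 and vector libraries (-0.26). The 3 spindle motors were thus all lower than the median gene, with only KIF11 beyond 2-fold. With 0.1 FPKM added in place of 1, KIF15 passed 2-fold as well (-1.28), and KIFC1 did not (-0.27). With the trend with GC content subtracted, as described below, KIF11 came to -1.03, KIFC1 to -0.74 and KIF15 to -0.40.

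Kinesins that act on chromosomes and microtubule plus ends had folds from -1.69 to 0.08. KIF18A, the kinesin-8 that damps chromosome oscillations at metaphase, was at 1.37 FPKM in the ATOH8 library against 8.80 FPKM in the vector library. Its fold of -1.69 was the lowest of all 30 kinesins (ENSG00000121621, protein-coding, chromosome 11, 28020620 to 28108308, minus strand, GRCh38). The locus given for KIF18A overlapped 2 other listed genes, so reads could have been split among them. KIF18B, the other kinesin-8, which shortens astral microtubules, had 5.95 and 16.9 FPKM in the ATOH8 and vector libraries (-1.01), just past the 2-fold line. The chromokinesin genes KIF4A (8.85 and 19.8 FPKM in ATOH8 and vector, -0.72) and KIF22 (27.3 and 46.4 FPKM in ATOH8 and vector, -0.39), whose products bind chromosome arms, stayed within 2-fold. KIF2C, the kinesin-13 that depolymerises microtubules at centromeres and corrects faulty attachments, had 17.9 FPKM in the ATOH8 library and 21.9 FPKM in the vector library, a fold of 0.08.

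Among the kinesins of the central spindle and cytokinesis, KIF20A stood apart from the other genes. KIF23, the motor of the centralspindlin complex, had 13.5 FPKM in the ATOH8 library and 38.8 FPKM in the vector library (-1.09). KIF20B, which acts late in cytokinesis, had 1.31 FPKM in the ATOH8 library and 5.98 FPKM in the vector library (-1.23). KIF14, which works with citron kinase at the midbody, had 1.15 FPKM in the ATOH8 library and 4.81 FPKM in the vector library (-1.08). All 3 passed the 2-fold line. KIF20A, the kinesin-6 that carries the chromosomal passenger complex to the midzone, had 19.4 FPKM in the ATOH8 library and 20.9 FPKM in the vector library (ENSG00000112984, protein-coding, chromosome 5, 138178719 to 138187715, plus strand, GRCh38). Its fold of 0.26 was the highest of the mitotic set, and its locus overlapped 2 other listed genes. KIF4B, an intronless copy of KIF4A with which it could share reads, was listed in the vector library alone, at 0.00725 FPKM, and KIF2B was listed in neither. As a set, 6 of 12 tested mitotic kinesins passed 2-fold downward (9.46% of all genes did) and 0 upward (12.8% of all genes). Their median fold was -0.92.

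Most transport kinesins lay near the median gene, with KIF5B, KIF3A and KIF13A well below it and KIF13B and KIFC2 well above it. KIF5B, the widely expressed heavy chain of conventional kinesin, had 7.67 FPKM in the ATOH8 library and 31.9 FPKM in the vector library. Its fold was -1.56, lower than that of all but 2.12% of tested genes (ENSG00000170759, protein-coding, chromosome 10, 32009010 to 32056431, minus strand, GRCh38). The other conventional heavy chains, KIF5A and KIF5C, which are mainly neuronal, were below 1 FPKM: KIF5A had 0.594 FPKM in the ATOH8 library and 0.203 FPKM in the vector library, and KIF5C had 0.671 and 0.700 FPKM in the ATOH8 and vector libraries. KIF5B therefore remained the main conventional heavy chain in both, at 11.4 times the KIF5C level in the ATOH8 library and 45.6 times in the vector library.

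KIF3A is the shared subunit of kinesin-2 motors in which it pairs with KIF3B or KIF3C. The pair with KIF3B carries cargo along the ciliary axoneme. KIF3A had 1.25 FPKM in the ATOH8 library and 5.003 FPKM in the vector library (-1.06). Its partners moved little against the median gene, KIF3B with 7.86 and 11.3 FPKM in the ATOH8 and vector libraries (-0.11) and KIF3C with 16.7 and 21.8 FPKM in the ATOH8 and vector libraries (-0.00). KIF3C was thus 13.4 times as high as KIF3A in the ATOH8 library and 4.35 times as high in the vector library. The difference in fold between KIF3A and its partners was smaller once the trend with GC content, described below, was subtracted: KIF3A minus KIF3C was -1.05 before and -0.01 after, and KIF3A minus KIF3B -0.95 before and -0.23 after. KIF17, the homodimeric kinesin-2, was below the level tested, at 0.398 FPKM in the ATOH8 library and 0.110 FPKM in the vector library.

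The vesicle carriers of the kinesin-3 family did not share a direction. KIF13A, which moves recycling endosomes, had 6.63 FPKM in the ATOH8 library and 17.5 FPKM in the vector library (-0.92), just short of 2-fold. KIF13B, its closest relative in the set, had 7.96 FPKM in the ATOH8 library and 4.57 FPKM in the vector library (1.05), just past 2-fold. KIF1B (0.24), KIF1C (0.05) and KIF16B (-0.02), carriers of mitochondria, secretory vesicles and early endosomes, lay close to the median gene. KIF1A, the neuronal carrier of synaptic vesicle precursors, stayed below 1 FPKM, at 0.0676 FPKM in the ATOH8 library and 0.406 FPKM in the vector library. The minus-end motors KIFC3 and KIFC2 stood at 63.6 and 13.6 FPKM in the ATOH8 library, against 83.3 and 10.7 FPKM in the vector library, with folds of -0.03 for KIFC3 and 0.68 for KIFC2. KIFC3, known from junctions and apical transport of epithelial cells, was the most abundant kinesin transcript in each library, at 21.8% of the kinesin FPKM in the ATOH8 library against 16.9% in the vector library. Of 11 tested transport kinesins, 2 passed 2-fold downward (9.46% of all genes did) and 1 upward (12.8% of all genes). The median fold was -0.02.

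The remaining kinesins, of cilia, signalling and microtubule dynamics, held both the only other lower gene and the highest fold. KIF12, known from polarised epithelia of kidney and liver, had 7.04 FPKM in the ATOH8 library and 2.89 FPKM in the vector library. Its fold of 1.41 was the highest of the 30 (ENSG00000136883, protein-coding, chromosome 9, 114086126 to 114099291, minus strand, GRCh38), and it was the 1 tested kinesin that passed 2-fold upward without the centring, with 1 FPKM added. KIF21A and KIF21B, which restrain microtubule growth, pointed in opposite directions. KIF21A had 4.19 FPKM in the ATOH8 library and 12.4 FPKM in the vector library (-1.01), and KIF21B had 1.85 and 0.921 FPKM in the ATOH8 and vector libraries (0.93).

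KIF2A, a kinesin-13 depolymerase used at spindle poles and in neurons alike and therefore kept out of both sets, had 6.27 FPKM in the ATOH8 library and 17.1 FPKM in the vector library (-0.95). KIF24, which restrains cilium formation at the centriole, had 0.712 and 1.74 FPKM in the ATOH8 and vector libraries (-0.32). KIF9, a kinesin of motile cilia, had 1.80 and 4.40 FPKM in the ATOH8 and vector libraries (-0.59). KIF26A, which lacks ATPase activity, had 1.41 FPKM in the ATOH8 library and 1.50 FPKM in the vector library (0.30). KIF6, KIF7, KIF26B and KIF27 stayed below 1 FPKM in both libraries, the highest of them KIF27 with 0.310 FPKM in the ATOH8 library and 0.920 FPKM in the vector library. KIF25 was listed in the ATOH8 library alone at 0.0280 FPKM, and KIF19 in neither. Of the 7 tested genes of this set, 1 passed 2-fold downward (9.46% of all genes did) and 1 upward (12.8% of all genes), around a median of -0.32.

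Set against each other, the 12 mitotic kinesins had a median fold of -0.92 and the 11 transport kinesins one of -0.02, a difference of -0.89 on the log2 scale. Of the 12 mitotic kinesins, 10 lay below the transport median, and KIF2C and KIF20A lay above it. The sets overlapped: KIF5B had a lower fold than 10 of the mitotic genes, and of 132 pairings of a mitotic with a transport kinesin the mitotic gene had the lower fold in 98. Summed over its tested genes, the mitotic set had 113 FPKM in the ATOH8 library and 227 FPKM in the vector library, a ratio of 0.497. The transport set had 156 FPKM in the ATOH8 library and 224 FPKM in the vector library, a ratio of 0.697. Mitotic genes therefore made up 38.6% of the kinesin FPKM in the ATOH8 library against 46.1% in the vector library. These sums are not centred and lean on the most abundant genes, such as KIFC3 with 63.6 FPKM in the ATOH8 library. Summed over all tested genes the ratio was 0.953, while the median gene had a fold of -0.36 before centring. Genes are not replicates of a condition, so no test was applied to the difference.

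**Figure D2:**
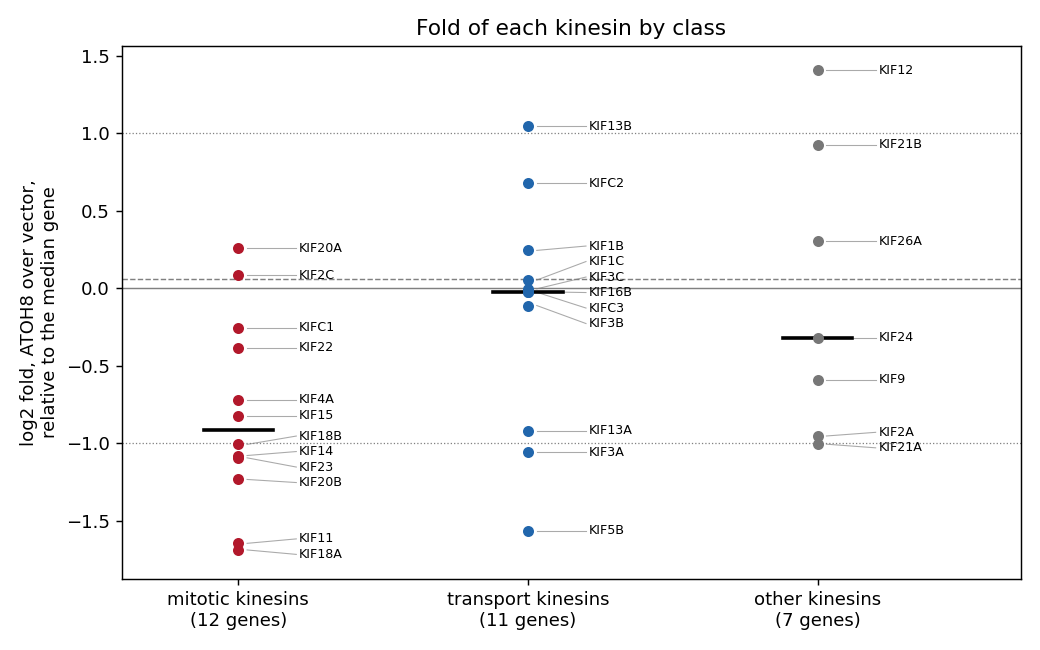
Log2 fold of each tested kinesin, ATOH8 library over vector library, relative to the median gene, in 3 sets, with a bar at each set's median, dotted lines at 2-fold and a dashed line at the median of all tested genes (0.06). The mitotic points gather below the median gene apart from KIF2C (0.08) and KIF20A (0.26). Most transport points lie near the median gene, with KIF5B (-1.56) far below and KIF13B (1.05) well above.

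Several close relatives within a kinesin family differed by more than the set medians did. The kinesin-6 genes KIF20B and KIF20A differed by -1.49 (KIF20B minus KIF20A), and KIF20A was 14.8 times as high as KIF20B in the ATOH8 library and 3.50 times as high in the vector library. KIF13A and KIF13B differed by -1.97 (KIF13A minus KIF13B) and changed places: KIF13A was at 0.833 times the KIF13B level in the ATOH8 library and at 3.84 times in the vector library. The kinesin-12 genes KIF15 and KIF12 also changed places, with KIF12 at 6.01 times the KIF15 level in the ATOH8 library and at 0.736 times in the vector library. KIF21A stayed above KIF21B in both, at 2.27 times its level in the ATOH8 library and 13.4 times in the vector library. The mitotic kinesin-8 genes KIF18A and KIF18B were closer, at a difference of -0.68 (KIF18A minus KIF18B). With the GC trend subtracted that difference turned to 0.49, and KIF20B minus KIF20A came to -0.60, KIF13A minus KIF13B to -1.59, KIF21A minus KIF21B to -1.05 and KIF15 minus KIF12 to -1.19.

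**Figure D3:**
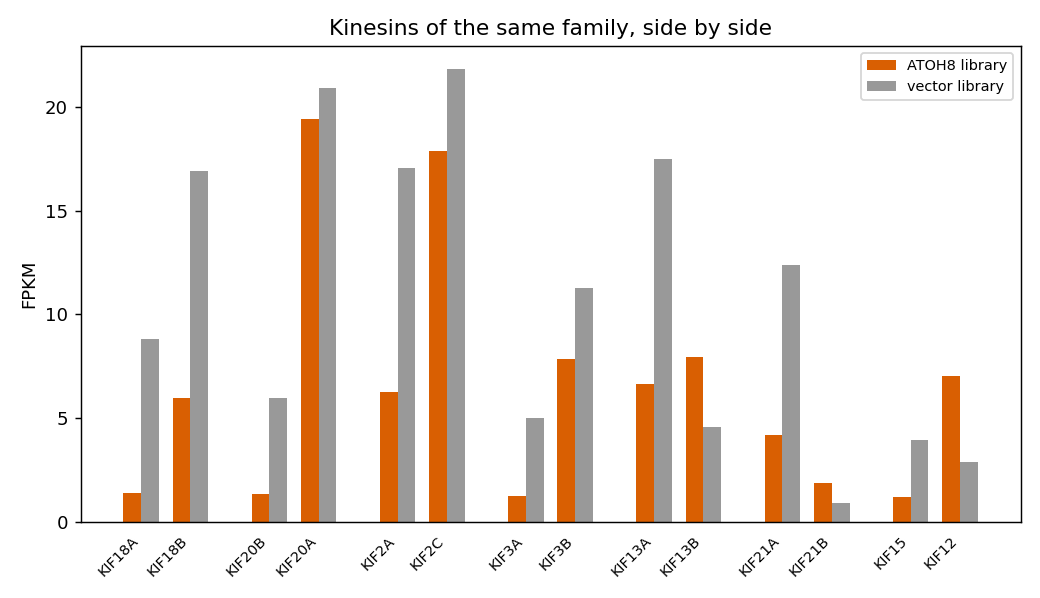
FPKM of 7 pairs of kinesins of the same family, with an orange bar for the ATOH8 library left of a grey bar for the vector library, 1 library each. KIF13B (7.96 against 4.57 FPKM), KIF21B (1.85 against 0.921 FPKM) and KIF12 (7.04 against 2.89 FPKM) are higher in the ATOH8 library, and their partners KIF13A, KIF21A and KIF15 are lower.

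The kinesin folds ran with base composition. Across the 30 tested kinesins the Spearman correlation of fold with the GC content of the longest transcript was 0.77 and the Pearson correlation 0.76. The same correlations over 12315 genes were 0.55 and 0.51. All points come from the same 2 libraries, and the genes are not independent replicates. The lower kinesins were rich in A and T, with KIF20B at 34.2% GC, KIF18A at 37.0%, KIF3A at 37.8%, KIF14 at 38.3%, KIF11 at 38.3%, KIF5B at 39.1%, KIF21A at 42.1% and KIF23 at 42.3%. KIF18B was the exception among them, at 58.4% GC. The 2 higher genes had 63.5% (KIF12) and 54.6% (KIF13B).

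Below 45% GC, a limit chosen after the values were seen, the 6 mitotic kinesins had a median fold of -1.16, the 2 transport kinesins KIF5B and KIF3A one of -1.31, and all 4565 tested genes one of -0.46. From 45% GC upward the 6 mitotic kinesins had a median of -0.32, the 9 transport kinesins one of -0.00 and all 7750 tested genes one of 0.33. After subtraction of the trend with GC content, 3 kinesins passed 2-fold downward, KIF18B (-1.50), KIF11 (-1.03) and KIF18A (-1.01), as did 5.96% of all genes. Upward it was 0 kinesins and 8.33% of all genes. KIF5B came to -0.99, KIF13A to -0.91 and KIF22 to -0.90. KIF20B came to -0.45, KIF3A to -0.41, KIF13B to 0.67 and KIF12 to 0.79. On that scale the mitotic median was -0.72 and the transport median -0.33, a difference of -0.39. Of the 12 mitotic kinesins 11 lay below the curve, KIF2C (-0.12) now among them, and KIF20A (0.14) lay above it. Below it too were 8 of the 11 transport kinesins and 6155 of all 12315 genes. The mitotic median was therefore below the transport median with and without the correction, by a smaller margin with it, but above it by 0.15 among the kinesins under 45% GC. The source of the GC trend was not tested.

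**Figure D4:**
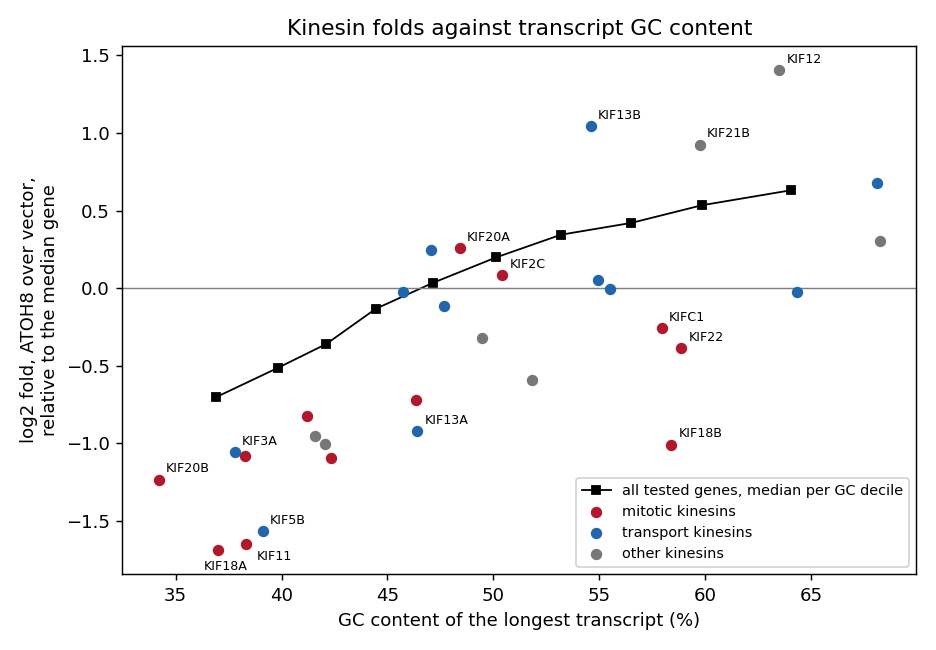
Log2 fold relative to the median gene against the GC content of the longest transcript (percent) for the 30 tested kinesins, with black squares at the median of each GC decile of all tested genes. The squares climb with GC content (-0.70 in the lowest decile, 0.63 in the highest), most mitotic points lie under them, and KIF18B lies furthest under.

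Promoter sequence was looked at because many mitotic genes share an element. The cell cycle genes homology region, read as TTTGAA (or, as a variant, TTTAAA), is where the DREAM and MuvB complexes hold such genes low outside late cell cycle phases, usually beside CCAAT boxes bound by NF-Y. RefSeq promoter windows (GRCh38, 250 bases before to 50 after the annotated start) were found for 26 of the 30 tested kinesins, several windows for 4 of them. KIF13B, KIF21B, KIFC2 and KIFC3 were not matched. TTTGAA, searched on both strands, occurred in 9 of 12 mitotic kinesins, 1 of 8 transport kinesins and 0 of 6 others. It was present in 15.2% of all 35116 windows and in 13.4% of the 9005 tested genes that have a window. The 1 transport kinesin was KIF5B, the lowest of its set. At 12.5% the share of transport kinesins with TTTGAA was near that of all tested genes with a window. The sites of the mitotic kinesins and of KIF5B are shown on the gene's strand, 30 bases each, with the element in capitals (TTCAAA is TTTGAA on the other strand):
KIF18A, chr11:28108149-28108178, minus strand: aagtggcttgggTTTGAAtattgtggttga
KIF11, chr10:92593090-92593119, plus strand: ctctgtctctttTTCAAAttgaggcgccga
KIF20B, chr10:89701602-89701631, plus strand: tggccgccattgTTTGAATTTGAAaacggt
KIF23, chr15:69414282-69414311, plus strand: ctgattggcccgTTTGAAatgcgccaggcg
KIF14, chr1:200620733-200620762, minus strand: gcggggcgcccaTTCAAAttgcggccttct
KIF18B, chr17:44947754-44947783, minus strand: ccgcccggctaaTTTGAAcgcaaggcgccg
KIF15, chr3:44761747-44761776, plus strand: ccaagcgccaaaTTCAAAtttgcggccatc
KIF4A, chrX:70290058-70290087, plus strand: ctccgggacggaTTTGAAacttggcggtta
KIFC1, chr6:33391815-33391844, plus strand: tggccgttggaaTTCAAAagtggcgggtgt
KIF5B, chr10:32056548-32056577, minus strand: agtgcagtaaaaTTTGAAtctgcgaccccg

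All 9 mitotic sites began within 55 bases of the annotated start, on either side of it, whereas that of KIF5B began 140 bases before it. KIF20B held the element in tandem. The 9 mitotic kinesins with TTTGAA had folds from -1.69 to -0.26, with a median of -1.08. The 3 without it, KIF22, KIF2C and KIF20A, had folds of -0.39, 0.08 and 0.26. On the GC-corrected scale the 9 had a median of -0.74, with KIF15 at -0.40, and KIF22 lay below that median at -0.90, with KIF2C at -0.12 and KIF20A at 0.14. KIF2C and KIF20A, the mitotic kinesins that did not stand below the median gene, held the variant TTTAAA instead:
KIF20A, chr5:138179059-138179088, plus strand: cgcagcgcgtaaTTTAAAatattgtatctg
KIF2C, chr1:44739822-44739851, plus strand: ttgcgcgcgggaTTTAAActgcggcggttt

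TTTAAA was present in 12.2% of all windows and in 10.3% of the tested genes that have a window. It occurred in 4 of 12 mitotic kinesins, 1 of 8 transport kinesins and 0 of 6 others. KIF14 and KIF23 held it as well, 198 and 211 bases upstream, and so did the transport kinesin KIF16B (fold -0.02), 241 bases upstream. Over all tested genes with a window the median fold was -0.12 for the 1203 with TTTGAA and 0.05 for the 7802 without it, and after the GC correction -0.02 for both. CCAAT, on either strand, occurred in 10 of 12 mitotic kinesins, 3 of 8 transport kinesins and 2 of 6 others, and was not found for KIF15 and KIF2C. It was present in 34.6% of all windows and in 43.6% of the tested genes that have a window. The E-box CANNTG, the general target of basic helix-loop-helix factors, occurred in 4 of 12 mitotic kinesins (KIF18A, KIF20A, KIF23 and KIF4A), 2 of 8 transport kinesins and 2 of 6 others. It was present in 68.7% of all windows and in 66.4% of the tested genes that have a window. A match describes letters in these windows and not a bound site.

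The 250 bases before the start are shown for the lowest mitotic kinesin, the lowest transport kinesin and the highest mitotic kinesin, with CCAAT (or ATTGG, its other strand) and the TTTGAA or TTTAAA element in capitals:
KIF18A, chr11:28108157-28108406, minus strand: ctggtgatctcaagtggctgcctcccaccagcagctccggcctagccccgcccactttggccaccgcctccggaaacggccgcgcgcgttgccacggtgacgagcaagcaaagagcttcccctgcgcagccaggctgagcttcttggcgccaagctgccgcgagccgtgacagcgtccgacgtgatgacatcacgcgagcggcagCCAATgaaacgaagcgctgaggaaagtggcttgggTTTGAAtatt
KIF5B, chr10:32056426-32056675, minus strand: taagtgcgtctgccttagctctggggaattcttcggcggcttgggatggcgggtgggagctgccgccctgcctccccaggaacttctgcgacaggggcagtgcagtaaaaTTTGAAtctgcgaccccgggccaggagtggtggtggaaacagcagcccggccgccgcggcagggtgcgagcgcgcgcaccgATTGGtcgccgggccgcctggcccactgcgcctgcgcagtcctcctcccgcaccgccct
KIF20A, chr5:138178862-138179111, plus strand: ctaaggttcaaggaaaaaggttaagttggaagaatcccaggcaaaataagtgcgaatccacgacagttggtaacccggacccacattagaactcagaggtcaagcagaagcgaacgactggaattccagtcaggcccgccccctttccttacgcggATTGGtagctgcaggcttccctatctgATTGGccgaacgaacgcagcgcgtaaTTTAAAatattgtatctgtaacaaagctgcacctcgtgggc

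In KIF18A the CCAAT box began 45 bases and the element 10 bases before the start. In KIF20A the CCAAT boxes began 94 and 67 bases and the TTTAAA element 41 bases before it. In KIF5B the order was the other way round, with the element 140 bases and the CCAAT box 59 bases before the start. The RefSeq starts of KIF18A and KIF20A lie inside the loci that the deposited tables give for these genes.

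The authors' deposited table of differential expression listed 14 of the kinesins, all 14 marked down and 0 up. Of the 30 tested kinesins 13 were among them (14.7% of all tested genes were marked down and 5.16% up), namely 7 of 12 mitotic, 3 of 11 transport and 3 of 7 other genes. In the authors' deposited table the log2 ratio was -2.68 for KIF18A with a q-value of 0.00288, -2.20 for KIF11 with a q-value of 0.00952, -2.19 for KIF20B with a q-value of 2.83e-06 and -2.05 for KIF5B with a q-value of 0.0105. KIF15, KIF13A, KIF2A and KIF24, short of 2-fold on the scale used here, carried a down mark in the authors' deposited table, and so did KIF1A, which was below 1 FPKM. KIF4A, KIF22, KIFC1, KIF2C and KIF20A were the mitotic kinesins absent from the authors' deposited table, as were KIF12 and KIF13B. Those ratios are ratios of the same FPKM, and the q-values compare 2 libraries and not the conditions, so the table adds no independent evidence.

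Partners of the mitotic kinesins lay mostly below the median gene too, 19 of 21, against 5801 of all 12342 tested genes. Of these spindle and midzone genes, 6 passed 2-fold downward (9.46% of all genes did) and 0 upward (12.8% of all genes), around a median of -0.73. They were led by DLGAP5, a spindle assembly factor (5.92 FPKM in the ATOH8 library and 25.7 FPKM in the vector library, -1.59), and CEP55, which builds the midbody (10.7 FPKM in the ATOH8 library and 40.5 FPKM in the vector library, -1.47). HMMR, a spindle microtubule protein, and SPAG5, a spindle and kinetochore protein, followed at -1.24 and -1.15. PRC1, the midzone bundler to which KIF4A binds, had 52.8 and 141 FPKM in the ATOH8 and vector libraries (-1.04). RACGAP1, the partner of KIF23 in centralspindlin, stood at -0.85. The 2 genes above the median gene were NUMA1 (0.68) and CIT (0.27), the gene of the citron kinase with which KIF14 works. The passenger complex genes that KIF20A serves, AURKB (-0.59), BIRC5 (-0.49), INCENP (-0.45) and CDCA8 (-0.18), lay between KIF20A and the lower kinesins. That order did not hold after the GC correction, where AURKB came to -0.998, INCENP to -0.98 and BIRC5 to -0.77. These lay below KIF23 (-0.76), KIF14 (-0.46) and KIF20B (-0.45), while CDCA8 (-0.43) lay above them. KIF18B (-1.50), KIF11 (-1.03) and KIF18A (-1.01) stayed lower than the passenger complex genes. CENPE, the kinetochore kinesin-7, had 0.465 FPKM in the ATOH8 library and 2.74 FPKM in the vector library (-0.99). On the GC-corrected scale 3 of these 21 genes passed 2-fold downward (5.96% of all genes did), around a median of -0.77.

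Cargo subunits and adaptors of the transport kinesins had a median of 0.43 over 16 tested genes, of which 3 passed 2-fold upward (12.8% of all genes did) and 1 downward (9.46% of all genes), counts too small to set apart from all genes. The highest was KLC4, a kinesin light chain, at 12.8 FPKM in the ATOH8 library and 4.47 FPKM in the vector library (1.70). MAPK8IP1 and MAPK8IP3, scaffolds that link kinesin to its cargo, stood at 1.14 and 1.03. KTN1, which encodes the kinesin anchor kinectin, was at 18.1 FPKM in the ATOH8 library and 57.4 FPKM in the vector library (-1.26). KIFAP3, the accessory subunit that joins the KIF3A motors to cargo, had 7.64 and 6.70 FPKM in the ATOH8 and vector libraries (0.53), with KIF3A itself at -1.06. The light chains KLC1 (0.31) and KLC2 (0.50) of the KIF5B motor likewise stood above the median gene, but came to -0.17 and -0.08 on the GC-corrected scale. The median of this list depended on base composition: it was -0.11 after the GC correction, where KLC4 and KIFAP3 passed 2-fold upward and 0 genes downward. On that scale 8.33% of all genes passed upward and 5.96% downward.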

How the data were processed

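Per the labels' protocols, total RNA was taken from 1 A549 culture with ATOH8 and 1 with the vector. The submitters' processing notes name CASAVA, HISAT2, Cufflinks 2.2.1 and hg38 (GRCh38). Annotation release, strand setting and depth of sequencing are not given in these sources, and counting error is therefore unknown. The authors deposited FPKM per gene for each library, per the file headers. Their deposited comparison table holds a log2 ratio, used as a score because ratios to 0 appear there as extreme numbers, with p-values and q-values. The ratio is ATOH8 over vector, as its value for ATOH8 shows. Its 2 columns of per-library values match no label and were left aside.

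The FPKM tables were merged on the gene identifier, and identifiers with 1 symbol were added up, giving 18786 symbols in both libraries. Genes listed in 1 library carry no fold, since absence is not a measured 0. Folds are log2(FPKM + 1), centred on the median of genes with a mean of at least 5 FPKM, for 12342 genes with a mean of at least 1 FPKM. No test was run, with 1 library per group. A pseudocount of 1 understates folds of low genes. GC content came from the longest transcript in GENCODE 29 (99.8% of tested genes matched), and a lowess curve (fraction 0.3, statsmodels 0.14.6) was subtracted for the correction. Promoter sequences are from RefSeq. The procedure was tested on simulated data, with changes planted only in genes of high level. Recovery at the lower levels of many kinesins was not tested. The kinesins, sets, partner lists and motifs were chosen with earlier results of these data known. All kinesins are named, and of each partner list at most 4 genes beyond 2-fold by size of fold. CENPE, PRC1, RACGAP1, NUMA1, CIT, KIFAP3, KLC1, KLC2, DYNC1H1, DYNLL1, the passenger complex genes, CD14 and PTPRC are named beyond that rule, after their values were seen.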

Additional observations from a re-analysis of the deposited data

How the results depend on the processing

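No paired analysis was possible because each group has 1 library. With 1 library per group, no spread between replicates bounds any value, and the depth behind the lowest genes is unknown. The mitotic minus transport difference of -0.89 kept its sign under each of the next 9 settings. Leaving out the centring cannot change it, because the same value is subtracted from every gene. TPM and upper quartile scaling can change it only through the pseudocount. It was -1.11 with a pseudocount of 0.1, -0.43 with 5, -0.91 without the filter, -0.71 with a mean of at least 5 FPKM, -1.04 with TPM, -0.97 with upper quartile scaling, -0.39 with the GC correction, -0.93 with KIF2A counted as mitotic and KIF21A and KIF21B as transport, and -0.97 over members whose locus overlaps no other listed gene. Added after seeing the data, it was -0.32 from 45% GC upward and turned to 0.15 below 45% GC, where 2 transport kinesins remain. With a pseudocount of 5, 1 mitotic, 1 transport and 0 other kinesins were at least 2-fold lower, 0 kinesins higher and 1 dynein or dynactin gene lower. With the GC correction the counts were 3, 0, 0 and 0 for kinesins, and 0 adaptor, 3 spindle and 1 dynein or dynactin genes were lower. On that scale 5.96% of all genes were lower and 8.33% higher. A mean of at least 5 FPKM left 1 transport kinesin lower and 1 kinesin higher. Without centring, 2 other kinesins were lower and 1 kinesin higher, with 3 adaptor, 11 spindle and 5 dynein or dynactin genes lower. Of all genes, 19% were lower and 6.24% higher without centring. With TPM the same counts were 2, 1, 2, 10 and 5. Shares over all genes were not computed with TPM, the other pseudocounts or the higher filter. A pseudocount of 0.1 gave 2 other kinesins lower, the changed sets gave 0, and members with a locus of their own gave 1 higher. Of the 11 kinesins beyond 2-fold, KIF11 alone stayed so under all 6 alternatives of scale, pseudocount and GC correction, and none changed sign.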

Other observations

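Cytoplasmic dynein and its activator dynactin carry cargo toward microtubule minus ends, opposite to most transport kinesins. Of 21 tested genes of this machinery, 2 passed 2-fold downward and 1 upward relative to the median gene, around a median of -0.30. The downward share was 9.52%, against 9.46% of all tested genes, and 12.8% of all genes passed upward. DYNC1LI1, a light intermediate chain that binds cargo adaptors, had 7.63 FPKM in the ATOH8 library and 28.6 FPKM in the vector library (-1.42). DCTN6, a subunit at the pointed end of dynactin, had 12.4 FPKM in the ATOH8 library and 34.2 FPKM in the vector library (-1.04). NDE1, a dynein regulator used at mitosis, had 22.0 FPKM in the ATOH8 library and 10.4 FPKM in the vector library (1.37). The heavy chain gene DYNC1H1 had 64.9 and 94.3 FPKM in the ATOH8 and vector libraries (-0.17). After the GC correction the median was -0.08, where DYNLL1 (-1.05) passed 2-fold downward and NDE1 (1.07) upward. On that scale 5.96% of all genes passed downward and 8.33% upward.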
